A study of Mus musculus with 2 samples.

Results

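Ultraconserved regions are long stretches of genome that are identical in human, mouse and rat, and many of them lie in genes whose products bind or process RNA. The 48 array probes described here read both strands of 24 such regions in 22 RNA-processing genes, out of 962 probes for ultraconserved regions and 59709 probes in all. They were chosen by name, as the plus and minus probe of each region whose host gene encodes an SR protein, a TRA2 protein, an hnRNP, a CLK kinase or another RNA-binding factor. The choice was made with results of these arrays known, so their detection and their differences between the arrays are given as a description. Host genes were given with the definition of the group for uc.50, uc.185, uc.189, uc.455 and uc.456, and were taken from the published human catalogue, as generally known, for the other 19 regions.

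SR proteins bind exonic enhancers through an RNA recognition motif and promote the use of nearby splice sites, whereas hnRNPs coat nascent transcripts and often repress splicing. TRA2 proteins are SR-related activators, and CLK kinases phosphorylate SR proteins and release them from nuclear speckles. Many of the genes for these factors carry ultraconserved sequence over or beside a so-called poison exon, whose inclusion sends the mRNA to nonsense-mediated decay and lets the protein limit its own amount.

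Lung RNA of male BALB/c mice aged 8 weeks was compared after saline or after the herbicide paraquat, which is used in mice to produce lung fibrosis. Saline or paraquat at 10 mg/kg was injected into the peritoneum daily for 5 days, and lungs were taken on day 12. RNA of 3 lungs was mixed in each group and put on 1 array per group, so that no test was possible. The spread between animals is unknown from these arrays, and how precise a difference can be is set by this number of arrays. The labels give no genetic change in either group, which were defined by injection alone. The arrays held 1 spot per probe for each of the 48, and none of these spots was marked as an outlier. The tissue label could not be checked, since 0 of 17 lung cell type markers had a probe named in the files, and fewer cells of a type cannot be told apart from less RNA per cell in such mixed lung RNA.

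The sequences of the probes and regions were not used here. PCR primers for uc.455 in Rbm39 and uc.456 in Srsf6 are shown because these regions were among those with the largest differences. They come from the primer list of the publication and are written from 5′ to 3′ with no capitals, as no part of them is marked.
UC.455- forward primer: acctaggggaccacggtaca
UC.455- reverse primer: cgtgatgaataaatgcccatc
UC.456 forward primer: accctttggctgaccttacc
UC.456 reverse primer: tgaggtttttggtggtggtt

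The promoters of the 5 host genes whose regions came with the definition of the group are shown because at least 1 probe of each was over 5-fold lower after paraquat. Each covers 300 bases around the gene's start, mostly upstream of it, in the RefSeq table of build GRCm38.p6 and on the strand of the gene. Srsf3 lies at chr17:29032410-29032709 on the plus strand, Srsf6 at chr2:162931258-162931557 on the plus strand and Srsf7 at chr17:80207256-80207555 on the minus strand. Clk4 lies at chr11:51262864-51263163 on the plus strand, and Rbm39 at chr2:156180189-156180488 on the minus strand, the first of 2 promoters listed for it. Capitals mark matches to the letters ACGTCA for the CRE core, GGGCGG for the Sp1 box, GCATGCGC for the NRF1 core, TATAAA for the TATA box and CCAAT for the box of that name, searched on both strands, and in Clk4 a pair of overlapping CRE matches forms 1 run.
Srsf3 promoter: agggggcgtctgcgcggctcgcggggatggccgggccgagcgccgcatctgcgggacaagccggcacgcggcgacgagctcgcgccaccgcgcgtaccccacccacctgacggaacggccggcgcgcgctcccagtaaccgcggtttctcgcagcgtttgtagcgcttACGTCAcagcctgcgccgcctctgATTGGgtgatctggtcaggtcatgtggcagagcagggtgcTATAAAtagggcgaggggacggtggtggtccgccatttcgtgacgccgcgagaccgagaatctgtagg
Srsf6 promoter: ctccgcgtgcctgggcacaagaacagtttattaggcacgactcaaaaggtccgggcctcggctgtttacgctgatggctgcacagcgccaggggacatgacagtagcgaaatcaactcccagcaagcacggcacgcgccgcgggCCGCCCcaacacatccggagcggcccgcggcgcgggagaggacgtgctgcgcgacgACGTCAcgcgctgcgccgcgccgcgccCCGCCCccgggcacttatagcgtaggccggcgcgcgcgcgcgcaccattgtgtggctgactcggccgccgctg
Srsf7 promoter: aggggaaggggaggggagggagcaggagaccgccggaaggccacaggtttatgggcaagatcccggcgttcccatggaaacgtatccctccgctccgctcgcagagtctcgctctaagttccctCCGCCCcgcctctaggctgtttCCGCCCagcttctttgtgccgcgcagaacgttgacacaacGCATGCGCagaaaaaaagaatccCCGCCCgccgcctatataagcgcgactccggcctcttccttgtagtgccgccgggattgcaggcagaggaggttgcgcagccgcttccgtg
Clk4 promoter: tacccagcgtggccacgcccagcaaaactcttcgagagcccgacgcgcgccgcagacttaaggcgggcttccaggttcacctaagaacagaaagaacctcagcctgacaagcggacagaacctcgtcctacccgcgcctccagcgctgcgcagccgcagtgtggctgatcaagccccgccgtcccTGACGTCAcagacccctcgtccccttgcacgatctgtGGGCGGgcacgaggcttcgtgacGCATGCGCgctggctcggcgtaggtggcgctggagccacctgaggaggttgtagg
Rbm39 promoter: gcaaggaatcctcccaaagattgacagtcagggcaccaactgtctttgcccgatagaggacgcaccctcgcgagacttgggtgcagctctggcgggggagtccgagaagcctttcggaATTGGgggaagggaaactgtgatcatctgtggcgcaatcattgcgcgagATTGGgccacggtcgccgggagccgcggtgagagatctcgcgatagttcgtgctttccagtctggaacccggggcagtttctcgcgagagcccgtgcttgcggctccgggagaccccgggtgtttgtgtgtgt

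The CRE letters were present in 3 of these 5 promoters and in 9 of the 21 host promoters in the table, against 7.51% of 32851 promoters of the same length. The Sp1 letters were present in 3 of the 5 and in 16 of the 21, against 35.7% of all promoters. The NRF1 letters matched in Clk4 and Srsf7 only, which were 2 of the 21, against 2.71%. The TATA letters matched in Srsf3 among the 5 and in 3 of the 21, against 13.6%, and the CCAAT letters in Rbm39 and Srsf3 among the 5 and in 7 of the 21, against 37.4%. The 5 promoters shown were 60.7% to 70% G and C, and base composition was not matched in these comparisons. A match describes the letters of these windows and is not a binding site. The host gene Matr3 was not matched.

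The RNA-processing probes were detected more often than the rest of the ultraconserved probes. The group was chosen with results of these arrays known, so the shares detected are given as a description. On the control array 39 of the 48 probes (81.2%) were well above background by the scanner software's own call, against 312 of 912 other ultraconserved probes (34.2%) and 62.7% of all 59625 probes that passed spot quality. On the paraquat array 36 of the 48 (75%) were detected, against 29.4% of the other ultraconserved probes and 58.6% of all probes. The same 36 probes were detected on both arrays, 3 probes (uc.144+, uc.185+ and uc.209+) on the control array alone, and 0 on the paraquat array alone. All 24 regions had at least 1 strand detected on both arrays.

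Probes not well above background on either array were uc.28-, uc.33-, uc.50+, uc.129-, uc.189-, uc.313+, uc.376-, uc.393- and uc.443+. Their highest signal was 15.6 in the control and 13.6 after paraquat, and 4 of these 9 were listed at 3.86, the lowest signal on the control array. No fold is given for these 9 probes. Signals are processed intensities in arbitrary units, before the arrays were set on a common scale.

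Over the 36 probes with signal on both, the control signal ran from 24.6 to 12280.2 with a median of 165, and the paraquat signal from 15.03 to 7545 with a median of 69.8. The paraquat array was the dimmer array as a whole, with a median log2 signal over all probes of 4.603 against 5.43. Before normalization 31 of the 36 probes were lower on the paraquat array and 5 were higher. All differences below are therefore on quantile-normalized log2 values, paraquat minus control. Without normalization the median difference of all probes detected on both arrays shifted by -0.79, with scaling on the spots of Gapdh by -2.00 and with scaling on the 75th percentile by 0.13, so that higher and lower mean relative to the bulk of probes.

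**Figure D1:**
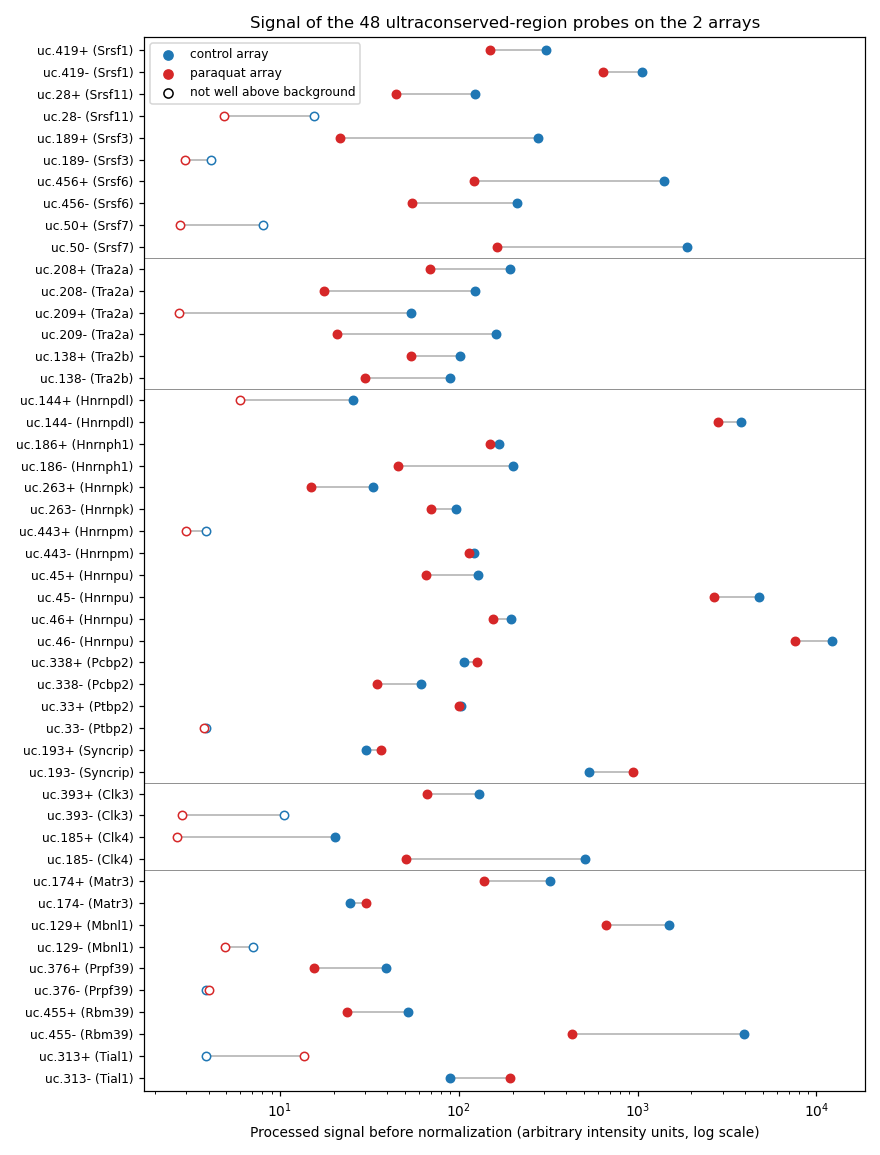
Processed signal of each of the 48 probes on the control array (blue) and the paraquat array (red), in arbitrary intensity units on a log scale before normalization, grouped by the family of the host gene. Open circles were not well above background. The control point lies to the right of the paraquat point for most probes, with the widest gaps for uc.50-, uc.456+, uc.455-, uc.185- and uc.189+ among probes detected on both arrays, and among these the order is turned for uc.193-, uc.193+, uc.174-, uc.313- and uc.338+.

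Of the 39 probes seen on 1 or both arrays, 6 (15.4%) had a measured paraquat value at least 5-fold below the control and 0 a value at least 5-fold above it. One of the 6, uc.209+, was not above background after paraquat. It was 2.39-fold lower when dim signals were raised to the lowest detected signal of their array, so that 5 probes then remained. The shares below and above were 4.56% and 5.54% of all 40078 such probes, and 6.61% and 6.32% of 348 other ultraconserved probes. By measured signal 9 of the 39 were lower and 2 higher at 3-fold, against 9.9% and 10.9% of all probes, and 7 of the 9 were detected on both arrays. At 2-fold the measured counts were 12 lower and 5 higher, against 18.9% and 18.2% of all probes and 23.6% and 16.7% of the other ultraconserved probes. With dim signals raised they were 10 and 5, as uc.144+ and uc.185+ were below background after paraquat. The members were chosen with these values known, so nothing is read from the comparison with the other probes.

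The 5 probes detected on both arrays and past 5-fold were uc.189+ in Srsf3, uc.50- in Srsf7, uc.456+ in Srsf6, uc.455- in Rbm39 and uc.185- in Clk4, and uc.209+ in Tra2a passed by its measured signal alone. Nearest to the 5-fold line among probes detected on both arrays, uc.185- lay just inside it with a log2 difference of -2.43, and uc.209- lay just outside it at -2.08. Of these 6 measured values, those of uc.50- and uc.456+ passed 5-fold in 9 of 9 other ways of scaling, background treatment and position correction, and that of uc.455- in 8 of 9, with -2.28 under the 75th percentile. The other 3 passed in fewer, namely 7 of 9 for uc.209+ and 6 of 9 for both uc.185- and uc.189+.

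Of the 36 probes with signal on both arrays, 5 (13.9%) passed 5-fold downwards, against 1.78% of 32274 probes overall and 1 of 232 other ultraconserved probes (0.431%). At 2-fold 9 were lower (25%), against 13.6% of all probes and 13.4% of the other ultraconserved probes. The median log2 difference of the 36 was -0.30, with quartiles of -0.79 and 0.48 and a range of -2.81 to 2.01. The median was -0.12 for the other ultraconserved probes and -0.04 for all probes. At the upper end 5 of the 36 were at least 2-fold higher (13.9%), against 11.2% of the other ultraconserved probes and 15.2% of all probes. The median was -0.07 after correction for array position and -0.06 in the processed values that the authors deposited, which cover 24 of the 48 probes.

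**Figure D2:**
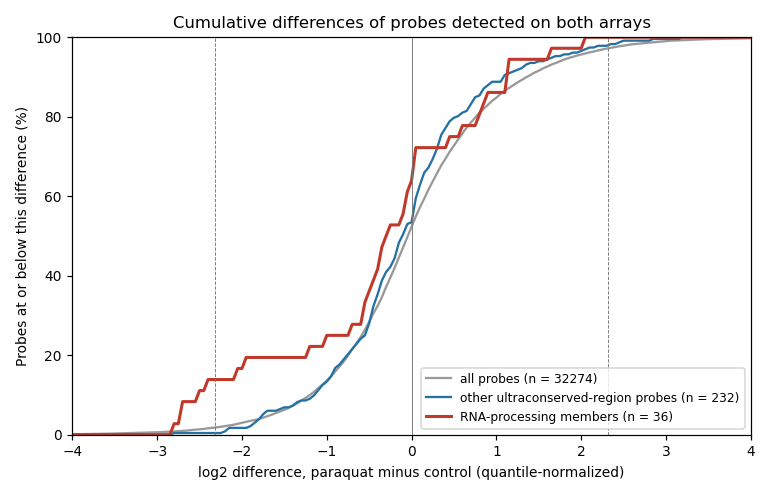
Share of probes (percent, vertical axis) at or below each normalized log2 difference, paraquat minus control (horizontal axis), for the 36 RNA-processing probes, 232 other ultraconserved probes and 32274 probes in all that were detected on both arrays. Dashed lines mark 5-fold. The curve of the RNA-processing probes stands above the others on the left, reaching 13.9% at the 5-fold line, and meets them on the right. Another scaling moves the curves, with a shift in the median of all probes of -0.79 without normalization and of -2.00 with scaling on Gapdh.

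**Figure D3:**
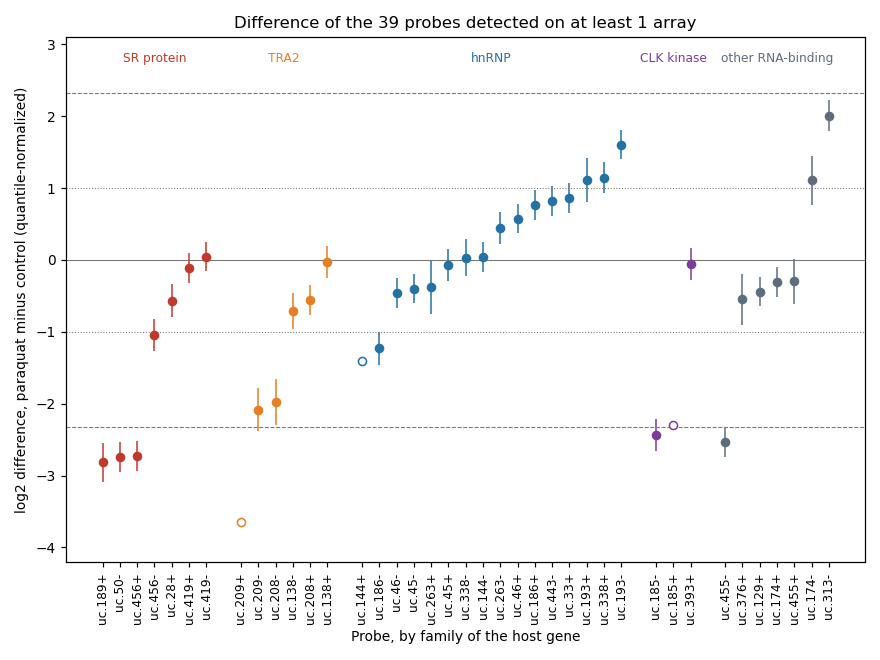
Normalized log2 difference, paraquat minus control, of the probes detected on at least 1 array, grouped by the family of the host gene, with error bars of 1 SE from the scanner software's error model, which covers the measurement on each array and no difference between animals. Dashed lines mark 2-fold and 5-fold. Open circles were detected on the control array alone and have no bar. The SR protein and TRA2 probes lie mostly below 0 and the hnRNP probes mostly above it, and with scaling on Gapdh the hnRNP probes too lie below 0.

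The SR protein genes held 3 of the 5 probes that were detected on both arrays and past 5-fold. Their 5 regions had 7 of 10 probes detected, all 7 on both arrays, of which 4 were at least 2-fold lower, 0 at least 2-fold higher and 3 within 2-fold, with a median log2 difference of -1.04. Under each scaling tried at least 6 of the 7 were below 0. The median was -0.59 with normexp, -0.69 without background subtraction and -0.95 with cyclic loess. It was -1.03 at the 75th percentile, -1.06 after position correction, -1.95 without normalization and -3.16 with scaling on Gapdh.

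The probe uc.50- in Srsf7, an SR protein that also serves as an adaptor in mRNA export, had a control signal of 1885 and a paraquat signal of 164. Its log2 difference was -2.74 with an error-model SE of 0.21, and it was -2.56 after correction for array position and -2.60 in the authors' values. The opposite strand, uc.50+, was not above background on either array, so that the region could be compared on 1 strand only.

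The probe uc.456+ in Srsf6, an SR protein of constitutive and alternative splicing, had a control signal of 1412 and a paraquat signal of 121, a log2 difference of -2.73 (SE 0.21). The minus strand of the region was also detected and was lower as well, at 212 and 55.0, a difference of -1.04 (SE 0.22). That of the minus strand was under 2-fold with normexp, at -0.59, and without background subtraction, at -0.69. Both strands of uc.456 were thus lower on the paraquat array, the plus strand by more. The plus probe lay in column 12 of the 164 columns of the array, where neighbouring probes of similar signal were higher on the paraquat array, and its difference was -3.37 once their median was subtracted.

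The probe uc.189+ in Srsf3, the smallest of the classical SR proteins, read 279 in control and 21.7 in paraquat RNA. Its log2 difference of -2.81 (SE 0.27) was the lowest among the probes detected on both arrays under quantile normalization. The paraquat signal was near the lowest detected signal of that array, 13.2, and the difference was -1.53 with normexp background correction, -1.78 without background subtraction and -2.15 after position correction, each under 5-fold.

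The remaining SR protein regions differed little. In Srsf1, the best known member of the family, uc.419- read 1056 and 645 on the control and paraquat arrays, a log2 difference of 0.05, and uc.419+ read 306 and 149.9, a difference of -0.11. In Srsf11, an SR-related protein, uc.28+ read 123 and 44.6, a difference of -0.57 (SE 0.23) that was -0.18 after position correction. So 3 of the 5 SR protein regions had a probe past 5-fold, and both strands of uc.419 lay within 2-fold.

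The TRA2 genes held 3 regions, with 6 of 6 probes detected on the control array and 5 on both. Of the 6, 3 were at least 2-fold lower and 0 at least 2-fold higher, against 18.9% and 18.2% of all probes detected on at least 1 array. All 3 were in Tra2a, and 1 of them, uc.209+, passed by a bound under quantile normalization. The 5 probes detected on both arrays were all below 0 with a median of -0.70, whereas after position correction 2 of the 5 were above 0 and the median was -0.06. One of the 5 was also above 0 under the 75th percentile, cyclic loess, normexp and no background subtraction.

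Tra2a and its paralogue Tra2b encode activators that bind purine-rich enhancers. In Tra2a, uc.209- read 162 in control and 21.0 in paraquat RNA, a log2 difference of -2.08 (SE 0.30). The other strand, uc.209+, read 54.3 and 2.72 and was detected on the control array alone. Its measured difference was -3.64, but set at the lowest detected signal of the paraquat array it was 2.39-fold lower. With normexp the difference was -0.42, and without background subtraction it was -0.63, each under 2-fold.

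The second region of Tra2a, uc.208, gave 124 and 17.6 on the minus strand, a log2 difference of -1.98 (SE 0.32), and 193 and 69.5 on the plus strand, a difference of -0.56 (SE 0.21). After position correction the minus strand stood at -2.44 and the plus strand at 0.21. With normexp the differences of uc.208- and uc.209- were smaller, -0.76 and -1.005. In Tra2b, uc.138+ read 102 and 54.0, a difference of -0.02, and uc.138- read 89.0 and 29.9, a difference of -0.70 that was -0.06 after position correction.

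The hnRNP genes held 9 regions, the most of any family. Of their probes 0 passed 5-fold, against 4.56% lower and 5.54% higher among all probes detected on at least 1 array. Of 18 probes 16 were detected, of which 2 were at least 2-fold lower by measured signal, 3 at least 2-fold higher and 11 within 2-fold. The shares of all probes at 2-fold were 18.9% lower and 18.2% higher, so these counts are not read as a trait of the family. One of the 2 lower probes, uc.144+, was below background after paraquat. The other, uc.186-, was under 2-fold with normexp and without background subtraction. Among the 15 detected on both arrays the median log2 difference was 0.45, with 10 above 0 and 5 below, and after position correction it was 0.47 with the same split. The median was -0.43 without normalization, with 3 above 0, and -1.64 with scaling on Gapdh, with 0 above 0, when the median of all probes was -0.83 and -2.04.

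Syncrip, an hnRNP of the Q type that acts in cytoplasmic mRNA turnover and transport, had the highest hnRNP probe. Its uc.193- read 532 in control and 941 in paraquat RNA, higher even before normalization, with a normalized log2 difference of 1.60 (SE 0.20). The difference was 1.25 after position correction and 1.54 in the authors' values. The plus strand, uc.193+, read 30.4 and 36.9, a difference of 1.11 (SE 0.31) that was 0.24 after position correction.

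Pcbp2 and Hnrnpk encode poly(C)-binding proteins with KH domains. In Pcbp2, uc.338+ read 108 and 126, a log2 difference of 1.14 (SE 0.21). This was 1.04 after position correction, 0.76 with normexp and 0.86 without background subtraction. The other strand, uc.338-, read 61.6 and 34.8, a difference of 0.03. In Hnrnpk, uc.263- read 96.1 and 70.05, a difference of 0.45, and uc.263+ read 33.3 and 15.03, a difference of -0.37 that turned to 0.60 after position correction. With scaling on Gapdh the differences of uc.193-, uc.193+ and uc.338+ were below 0, at -0.39, -0.93 and -0.98.

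Hnrnph1, which binds runs of G, had the widest gap between the differences of its strands among hnRNP regions with both strands detected. Its uc.186+ read 168 in control and 149 in paraquat RNA, and uc.186- read 202 and 45.8. The log2 difference was 0.76 (SE 0.21) for the plus strand and -1.23 (SE 0.23) for the minus strand. The latter was -1.79 after position correction, -0.84 with normexp and -0.99 without background subtraction. The strands thus lay on opposite sides of 0, and with scaling on Gapdh both lay below it.

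Both regions of Hnrnpu lay within 2-fold on both strands. In Hnrnpu, a nuclear scaffold protein, uc.46- read 12280.2 and 7545 and uc.45- read 4789.8 and 2667, with log2 differences of -0.46 and -0.40. The plus strands of these regions read 197 and 155 for uc.46+ and 129 and 65.9 for uc.45+, with differences of 0.58 and -0.07. Position correction took uc.46- to -0.84 and uc.46+ to -0.05.

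In Hnrnpdl, a relative of Hnrnpd, uc.144- read 3793 and 2812, a log2 difference of 0.04. Its plus strand read 25.7 on the control array and 5.98, not above background, on the paraquat array. Set at the lowest detected signal of the paraquat array it was 1.17-fold lower, an approximate bound. In Hnrnpm uc.443- read 122 and 115, and in Ptbp2, the neuronal relative of the polypyrimidine tract binding protein, uc.33+ read 104 and 100.2, with differences of 0.82 and 0.86. Both lay within 2-fold and above 0, and uc.33+ stood at 1.18 after position correction.

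The CLK kinase genes held 2 regions, of which the region in Clk4 was lower and that in Clk3 was not. The probe uc.185- in Clk4 read 509 in control and 50.7 in paraquat RNA, a log2 difference of -2.43 (SE 0.22) that was -1.70 with normexp, -1.91 without background subtraction and -2.31 after position correction, each under 5-fold. Its other strand, uc.185+, read 20.3 on the control array and 2.67, not above background, on the paraquat array. With the control signal so near the detection floor the bound was under 1 and no fold is given. In Clk3, uc.393+ read 129.9 and 66.7, a difference of -0.06.

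Among the other RNA-binding factors, Rbm39 and Tial1 stood at opposite ends. The probe uc.455- in Rbm39, a splicing coactivator related to the large subunit of U2AF, gave signals of 3929 in control and 428 in paraquat RNA. Its log2 difference was -2.54 (SE 0.20), -2.49 after position correction and -2.47 in the authors' values. The plus strand, uc.455+, read 52.0 and 23.7, a difference of -0.30 (SE 0.31). That probe lay in column 4. Its neighbouring probes of similar signal had a median difference of 1.46, and its own was -1.76 after subtraction of that median.

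Tial1 encodes a stress granule protein that binds U-rich RNA. Its uc.313- read 89.3 in control and 193 in paraquat RNA, a log2 difference of 2.01 (SE 0.21), the highest among the probes detected on both arrays under quantile normalization. The probe lay in column 12, and its difference was 1.35 after position correction. It was -0.09 with scaling on Gapdh, under which the median of all probes was -2.04. Across the alternatives that put both arrays on a common scale without Gapdh it stayed between 1.35 and 2.12.

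Matr3, a nuclear matrix protein, had its strands on opposite sides of 0. Its uc.174+ read 326 and 139, a log2 difference of -0.31 (SE 0.21), whereas uc.174- read 24.6 and 30.5, a difference of 1.11 (SE 0.34). The control signal of uc.174- was near the lowest detected control signal, 19.4. Its difference was 1.07 after position correction, 0.34 with normexp and 0.44 without background subtraction. In Mbnl1, the muscleblind splicing regulator that expanded CUG repeats sequester in myotonic dystrophy, uc.129+ read 1495 and 666, a difference of -0.44. In Prpf39, a factor associated with U1 snRNP, uc.376+ read 39.1 and 15.5, a difference of -0.55 (SE 0.36).

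Over the 36 probes detected on both arrays the error-model SE of the log2 difference had a median of 0.22 and ran from 0.20 to 0.37. As a second measure of array error, 15 reference genes were each spotted repeatedly, with 14 to 20 usable spots per array. The SDs of a gene's spots on the control and paraquat arrays were combined into an SD for the difference. Its median over the genes was 0.19, and the smallest was 0.14 in Actb. It was largest in the dimmest genes, at 0.42 in G6pd2, 1.26 in Gk and 1.41 in Ldhal6b, whose control signals were 441, 192 and 20.8. The median control signal of the 36 probes was 165, so 0.19 may be too small for the dim ones among them. Differences of 0.30 or less in size, such as those of uc.419-, uc.45+, uc.138+, uc.393+ and uc.338-, were under 2 of these SEs. Neither measure holds any spread between animals, so a difference larger than them shows a difference between these 2 arrays and not between the conditions.

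Levels of different probes cannot be set against each other, so the strands of a region were compared by their differences between the arrays. As a label only, the strand whose probe had the higher mean normalized log2 signal is called the brighter, which was the plus strand in 12 regions and the minus strand in 12. The brighter strand was detected on both arrays in all 24 regions, and the dimmer strand in 12.

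Of the 12 regions with both strands detected on both arrays, 7 had differences of the same sign on both strands, 5 of them below 0 on both. The strands lay within 1 log2 unit of each other in 5. The brighter strand had the lower difference in 5 and the dimmer strand in 7, so no strand was lower throughout. The gap, brighter minus dimmer, ran from -2.24 in uc.455 and -1.68 in uc.456 to 1.42 in uc.208 and 1.99 in uc.186. Over the probes detected on both arrays the median difference was -0.35 for the 24 brighter strands and -0.20 for the 12 dimmer strands, and -0.20 for 18 plus and -0.43 for 18 minus probes.

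**Figure D4:**
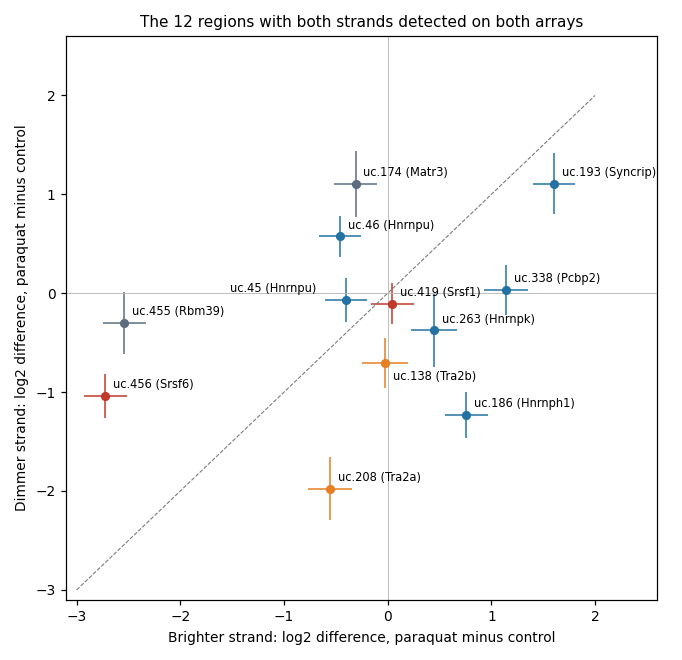
Normalized log2 difference, paraquat minus control, of the brighter strand (horizontal axis) and the dimmer strand (vertical axis) of the 12 regions in which both were detected on both arrays, coloured by host gene family, with error bars of 1 SE from the error model and a dashed line of equal difference. The regions uc.455 and uc.456 lie far to the left, where the difference of the brighter strand was -2.54 and -2.73, and uc.208 and uc.186 lie below the line, where that of the dimmer strand was -1.98 and -1.23.

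The genome to which the plus and minus of the probe names refer is not given in the sources used here. For this reason sense and antisense were not assigned to any probe.

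The position of a probe on the array moved with its difference. Over all probes detected on both arrays the median log2 difference was 0.36 in columns 1 to 64 and -0.18 above column 64. Of the 48 probes, 24 lay in columns 1 to 64 and 24 above. The median of the members detected on both arrays was -0.07 in columns 1 to 64 (17 probes) and -0.37 above (19 probes), and after position correction -0.19 and -0.07. Probes past 5-fold were on both sides, with uc.456+, uc.185- and uc.455- in columns 12, 13 and 61 and uc.50- and uc.189+ in columns 96 and 97. The part of array position in the single differences was not tested.

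**Figure D5:**
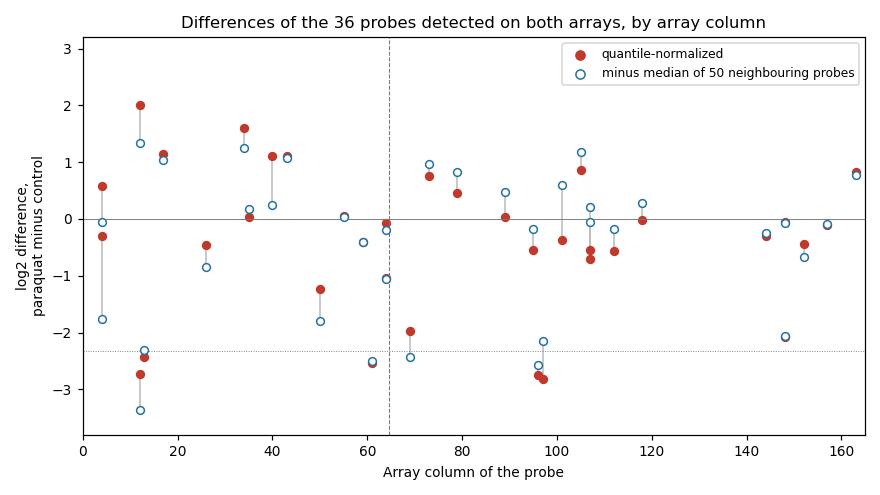
Normalized log2 difference, paraquat minus control, of each RNA-processing probe (vertical axis) against its column on the array (horizontal axis), for the 36 probes detected on both arrays. Filled circles are normalized values, open circles the same values minus the median of 50 neighbouring probes, the dashed line marks column 64 and the dotted line 5-fold lower. The corrected values lie mostly under the others on the left of column 64 and over them on the right, and probes near or past 5-fold lie on both sides. Scaling on Gapdh shifts the median of all probes by -2.00.

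Other genes of RNA processing could be followed only in part. Of 55 such genes listed, 1 had a probe named in the files apart from the ultraconserved probes. This was Nono, a paraspeckle protein, with a geometric mean of 3723 over 20 spots of the control and 2084 over 17 spots of the paraquat array, a log2 difference of -0.33 with an SD between spots of 0.26. The probes of an ultraconserved region in Ddx5, an RNA helicase gene, read 19786 and 2114 on the minus strand, a difference of -2.85, and 203 and 52.5 on the plus strand, a difference of -1.04. This minus probe was the single one of the 232 other ultraconserved probes to pass 5-fold downwards, and after position correction it stood at -2.67.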

How the data were processed

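Lung RNA of 1 mixed sample per group, depleted of ribosomal RNA and labelled with random primers, was hybridized to 1-colour Agilent arrays designed by Arraystar for mouse lncRNAs (mm9). The authors deposited spot intensity from Agilent Feature Extraction 10.7.3.1, background-subtracted and detrended but not normalized between arrays (multiplicative detrending was on for the paraquat array only), and normalized log2 values of 14331 probes, which were used as an alternative.

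From the deposited intensity, log2 of the processed signal was averaged over the spots of a probe, without control spots, negative probes and outliers, and quantile-normalized over 59625 probes (limma 3.58.1, R 4.3.3). Detected means well above background. For probes detected on 1 array, bounds were set against the lowest detected signal of the other, 19.4 for control and 13.2 for paraquat. An undetected probe can read above that signal, as uc.313+ did at 13.6 on the paraquat array, so these bounds are approximate. Saturation affected 0 spots. Position correction subtracted the median difference of the 50 nearest probes detected on at least 1 array within 1 log2 unit of mean signal. As neighbours were matched on signal, the correction holds signal level as well as position, above all for dim probes. In column 4 the neighbours' median was -2.25 for uc.189- and 0.62 for uc.46+. Alternatives were other scalings (75th percentile, median, none, cyclic loess, detected probes only, Gapdh), normexp with an offset of 50 or no background subtraction, position correction, other treatments of dim probes and the authors' values. All 48 probes were named, and no test was run. The members, gene lists and alternatives were chosen with earlier results of these data known. The normalization was also run on simulated data, made from the control array with a uniform shift, random noise and planted changes. The simulated data held no trend across the array, so that run says nothing on such a trend.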

Additional observations from a re-analysis of the deposited data

How the results depend on the processing

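With 1 array per group no replicate could be left out. No paired analysis was possible because each group had 1 array. The count of 6 probes at least 5-fold lower was 20 with scaling on Gapdh, 3 with normexp, 3 without background subtraction, 3 of 21 outside columns 1 to 64 and 3 of 24 in the authors' values. The 12 at least 2-fold lower were 21 without normalization, 34 with Gapdh, 6 with normexp, 6 without background subtraction, 6 outside those columns and 4 in the authors' values, and the 5 at least 2-fold higher were 1, 0, 2, 2, 0 and 2 in the same order. The median of -0.30 was -0.0776 at the 75th percentile, -1.0003 without normalization, -2.21 with Gapdh, -0.0746 after position correction and -0.0601 in the authors' values. That of the brighter strands, -0.35, was -0.0177 at the 75th percentile, -0.12 at the median shift, -0.94 without normalization, -2.15 with Gapdh, -0.15 with normexp, -0.12 after position correction and -0.0551 in the authors' values. The gap of -0.18 to the other ultraconserved probes was 0.0201 in the authors' values. Reversed were, with Gapdh, uc.174- (-0.90), uc.193- (-0.39), uc.193+ (-0.93), uc.313- (-0.0941) and uc.338+ (-0.98), and uc.185+ (0.10) with dim signals raised to the lowest detected one. Of 414 values of single probes under the alternatives, 245 moved by less than the median spot SD of 0.19, 163 by more and 6 reversed. The spot SD was larger in the dimmest reference genes, up to 1.41 in Ldhal6b, so 0.19 may be too small a yardstick for dim probes. Fewer probes are counted outside those columns and in the authors' values by construction. Leaving out normalization and scaling on Gapdh moved the median of all probes by -0.79 and -2.00, and the counts move with it. An added offset or unsubtracted background makes log2 differences of dim probes smaller by arithmetic. For the rest the cause was not tested. With dim signals raised, 5 were at least 5-fold and 10 at least 2-fold lower, uc.209+ stood at -1.25 and uc.144+ at -0.23. Signal near background limits uc.144+, uc.185+ and uc.209+, which have only bounds or none, and the values of uc.189+, uc.208- and uc.209- moved by over 1 log2 unit with normexp.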
